A study of Mus musculus with 2 samples.

Results

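The 10 genes described here, Spo11, Dmc1, Prdm9, Hormad1, Hormad2, Msh4, Msh5, Mei1, Mei4 and Mlh3, act in meiotic recombination, and were followed in the H3K4me3 profile of prospermatogonia, which are male germ cells before birth. They are 10 of 21887 protein-coding genes in the RefSeq table of GRCm38.p6, the build that mm10 corresponds to. All H3K4me3 peaks that overlapped their bodies or the 5 kb on either side were taken, which gave 25 of 135064 peaks. The mark was mapped by CUT&RUN, which sequences the DNA that an antibody-tethered nuclease cuts out of chromatin. Oct-GFP+ cells, carrying a germ cell reporter, were sorted fresh at E17.5, and 130000 cells were used per assay. Per the labels there was 1 library with the H3K4me3 antibody and 1 with IgG, and no treatment, strain or further allele is named. Values of the latter were not analysed here. With 1 library no test between groups was possible, so values are given with 95% exact Poisson intervals, which cover counting error only.

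In meiosis programmed double-strand breaks are made in every chromosome and repaired from the homologous chromosome, which pairs the homologs and yields crossovers. PRDM9 marks the sites of future breaks by placing H3K4me3 on them, SPO11 cuts, DMC1 carries the strand exchange, and MSH4, MSH5 and MLH3 turn a part of the repair intermediates into crossovers. At E17.5 male germ cells are in mitotic arrest and enter meiosis only after birth, so the genes were profiled well before their products act in meiosis.

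The mark lay at the RefSeq start of 8 of the 9 genes for which the promoter table gives one, against 72.1% of 17492 protein-coding genes. Here the start is the 5′-most one in that table, and a start was called marked where a peak overlapped the 1000 bp on either side of it. Mei1 had no peak there, and Spo11 has no entry. At either annotated end of the gene, counted in the same way, 9 of 10 genes were marked, against 74.5% of all protein-coding genes, and Spo11 was the exception, with its peaks inside the gene. The members' starts differed in where the peak lay. It covered the start in Dmc1, Prdm9, Hormad1, Hormad2, Mei4 and Mlh3, lay only upstream of it in Msh4 and only downstream in Msh5. A peak overlapped the window from 250 bases before to 50 after the start in 6 of 9 members and in 65.7% of all genes with a start. Every member had a peak in its body or flanks, as did 88.3% of all protein-coding genes.

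**Figure D1:**
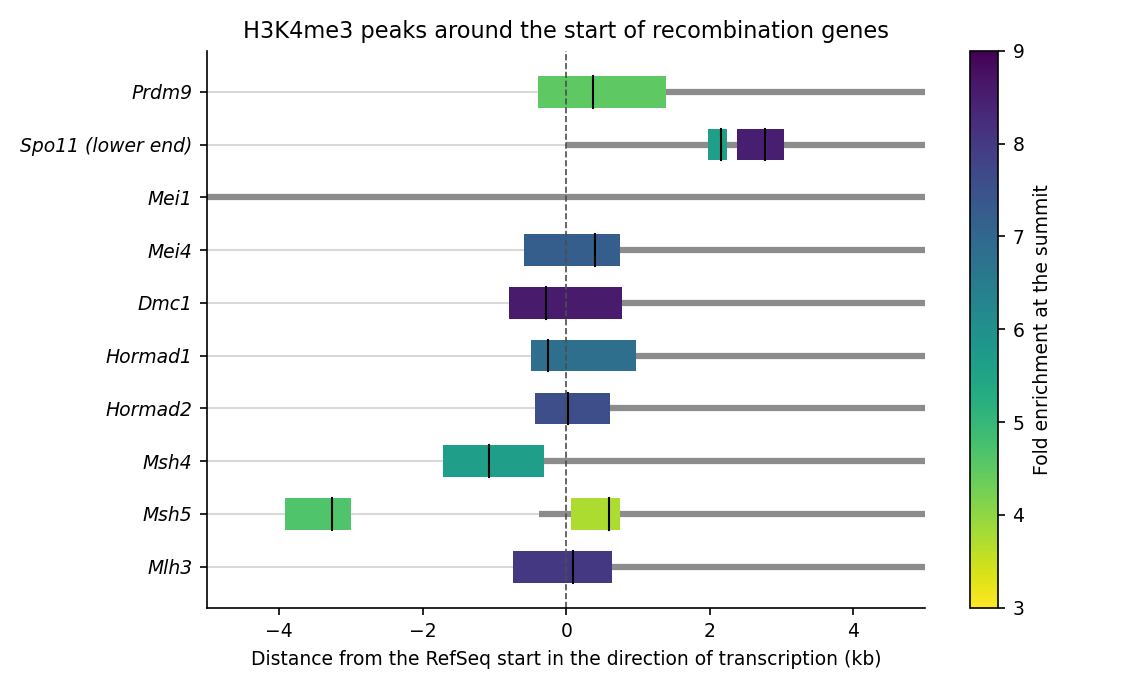
Peaks within 5 kb of the start of each gene, in kb along the direction of transcription, coloured by fold enrichment, with a black line at each summit and the annotated gene in dark grey. Spo11 is drawn from its lower annotated end in order of coordinate, because its start is not in the table. Peaks cross the start in 6 genes, lie to one side in Msh4 and Msh5, and are missing around the Mei1 start.

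The windows around the start are shown first for the 4 members that hold one of 3 sequences searched on both strands. CACGTG is the E-box bound by MAX partners, GCGGGAA is part of the site of E2F factors, and CNCCTCAG was reported for the STRA8 and MEIOSIN pair that switches on the meiotic program. E2F6 and the MAX partner MGA belong to a Polycomb complex that keeps germ line genes silent in other cells. Sequences are from RefSeq, GRCm38.p6, 5′ to 3′ on the strand of the gene, with matches on either strand in capitals. The Hormad1 window is chr3:95559427-95559726, plus strand, and those of Hormad2 (chr11:4441033-4441332, minus strand), Msh5 (chr17:35046573-35046872, minus strand) and Prdm9 (chr17:15564305-15564604, minus strand) follow.
Hormad1: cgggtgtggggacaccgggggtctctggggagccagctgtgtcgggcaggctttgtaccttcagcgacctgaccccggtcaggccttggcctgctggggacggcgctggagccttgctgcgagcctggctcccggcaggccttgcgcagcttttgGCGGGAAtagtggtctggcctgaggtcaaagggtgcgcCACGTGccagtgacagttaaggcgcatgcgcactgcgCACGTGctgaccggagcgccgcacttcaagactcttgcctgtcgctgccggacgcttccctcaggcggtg
Hormad2: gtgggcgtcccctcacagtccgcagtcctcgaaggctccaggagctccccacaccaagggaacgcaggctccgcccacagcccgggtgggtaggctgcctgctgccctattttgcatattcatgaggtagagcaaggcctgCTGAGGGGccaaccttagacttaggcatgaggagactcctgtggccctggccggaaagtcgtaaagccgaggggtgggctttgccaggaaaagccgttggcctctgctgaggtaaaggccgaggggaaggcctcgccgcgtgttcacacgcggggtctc
Msh5: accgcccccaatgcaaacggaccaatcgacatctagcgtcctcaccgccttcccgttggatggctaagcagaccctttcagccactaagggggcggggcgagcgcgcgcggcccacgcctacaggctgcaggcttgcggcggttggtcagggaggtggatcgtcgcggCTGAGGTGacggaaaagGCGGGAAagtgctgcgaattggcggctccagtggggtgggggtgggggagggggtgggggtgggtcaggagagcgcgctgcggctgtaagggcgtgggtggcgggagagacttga
Prdm9: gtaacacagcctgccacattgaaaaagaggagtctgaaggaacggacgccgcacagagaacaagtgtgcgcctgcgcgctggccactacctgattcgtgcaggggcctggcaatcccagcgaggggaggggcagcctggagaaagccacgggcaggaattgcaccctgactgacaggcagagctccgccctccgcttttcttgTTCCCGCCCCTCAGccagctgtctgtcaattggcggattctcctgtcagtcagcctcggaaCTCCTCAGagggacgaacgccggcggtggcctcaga

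Hormad1 held CACGTG at 2 places, 52 and 15 bases before the start, and GCGGGAA 89 bases before it, counted to the nearest base of each match. In Msh5 GCGGGAA lay 59 bases and the reverse complement of CNCCTCAG 75 bases before the start. In Prdm9 the reverse complement of GCGGGAA ended 41 bases before the start and shared its last base with a CNCCTCAG. A second CNCCTCAG in that window began 14 bases after the start. Hormad2 held the reverse complement of CNCCTCAG alone, 102 bases before the start. Over the 9 members 1 window held CACGTG, 3 held GCGGGAA and 3 held CNCCTCAG, against 7.91%, 6.01% and 8.57% of all 17492 windows. At least 1 of the 3 was in 4 of 9 members and in 20.6% of all windows. A match describes these letters, and binding was not measured here.

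The next windows show how the members differ in CpG dinucleotides, which are in capitals: Dmc1 had the highest start peak, Msh4 a peak only upstream of its window, and Mei1 no peak near it. They lie at chr15:79605060-79605359, minus strand, chr3:153904842-153905141, minus strand and chr15:82082226-82082525, plus strand.
Dmc1: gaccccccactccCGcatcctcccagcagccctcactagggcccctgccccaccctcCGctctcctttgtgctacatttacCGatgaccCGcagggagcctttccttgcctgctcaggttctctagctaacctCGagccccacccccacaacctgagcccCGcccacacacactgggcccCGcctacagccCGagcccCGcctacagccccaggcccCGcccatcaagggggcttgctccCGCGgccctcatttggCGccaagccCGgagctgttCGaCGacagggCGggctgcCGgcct
Msh4: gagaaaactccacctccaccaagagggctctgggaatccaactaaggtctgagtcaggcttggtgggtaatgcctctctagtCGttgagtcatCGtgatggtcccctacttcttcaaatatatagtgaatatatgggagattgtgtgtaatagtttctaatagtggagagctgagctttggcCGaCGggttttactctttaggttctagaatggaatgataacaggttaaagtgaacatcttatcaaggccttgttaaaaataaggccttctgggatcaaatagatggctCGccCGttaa
Mei1: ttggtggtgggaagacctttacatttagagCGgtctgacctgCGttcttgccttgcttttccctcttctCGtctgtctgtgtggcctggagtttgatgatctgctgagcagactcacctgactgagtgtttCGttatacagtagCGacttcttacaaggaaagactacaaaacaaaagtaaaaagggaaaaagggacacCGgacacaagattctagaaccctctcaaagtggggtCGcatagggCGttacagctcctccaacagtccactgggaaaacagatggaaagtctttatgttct

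The Dmc1 window held 18 CpGs, the Msh4 window 6 and the Mei1 window 8. Windows of the other members held 16 in Hormad2 and Mei4, 18 in Prdm9, 22 in Mlh3, 24 in Hormad1 and 27 in Msh5. The median was 18 over the 9 members and 13 over all genes of the table, with quartiles of 4 and 24. Of all genes with 5 to 9 CpGs in the window, 68% were marked at the start, against 21.5% with 0 to 4 and 96.6% with 10 to 14. All 7 members with 15 or more CpGs were marked, in bins where 98.9% to 99.2% of all genes were. These 7 starts were thus marked as nearly all genes of like CpG count were. Msh4 and Mei1, the members poorest in CpG at the table start, fall in the bin where 68% of genes were marked. In both genes a peak lay at the annotated end on the start side, where CpGs were not counted.

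**Figure D2:**
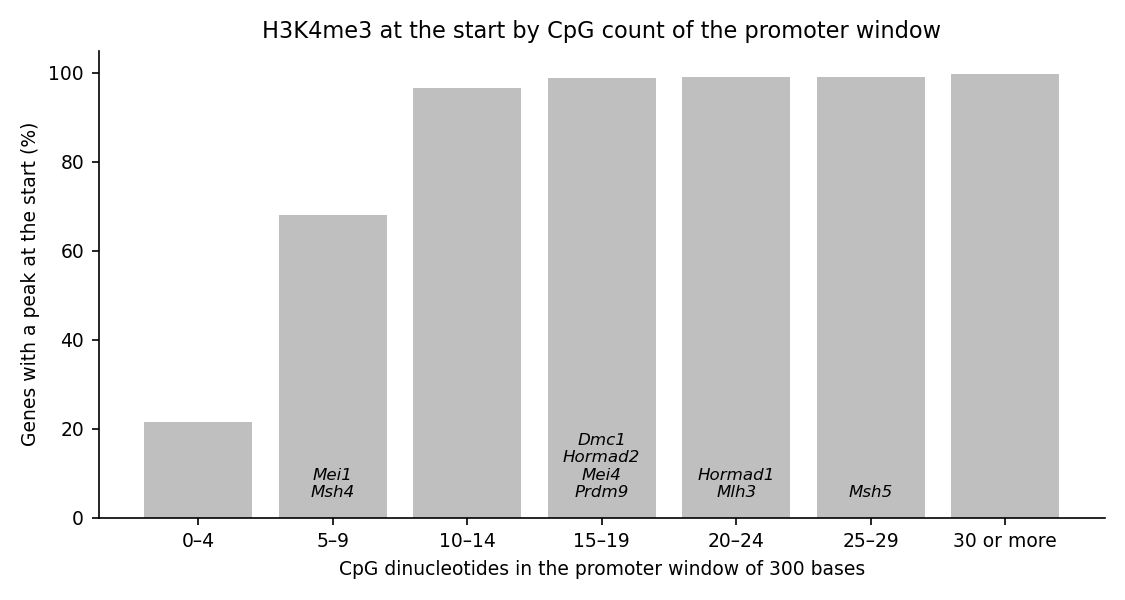
Share of genes with a peak within 1000 bp of the start, in percent, by the number of CpG dinucleotides in the promoter window, with the members of each bin named in its bar. The share is 21.5% at 0 to 4 CpGs and at least 96.6% from 10 on, and Mei1 and Msh4 are the members in the bin between.

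Among the genes of break formation, Prdm9, the histone methyltransferase that selects break sites, carried 2 peaks. The peak over its start, chr17:15562966-15564746, was the widest of the 25 at 1781 bp and had 46 fragments at the summit (33.7 to 61.4). Its fold enrichment, the fragments at the summit over the local background of the peak caller, was 4.48 (3.31 to 5.95), beside a background of 9.48 fragments, the highest of the 8 start peaks. This peak also covered the second Prdm9 start of the table, whose window held 9 CpGs and none of the 3 sequences. The other peak, chr17:15543898-15545011, lay inside the gene, 826 bp from the annotated end opposite to the start. It had 57 fragments (43.2 to 73.9), the highest summit of the 25, and a fold of 8.47 (6.45 to 10.9). The last exon of Prdm9, which encodes its array of zinc fingers, is at that side of the gene, but exon positions were not used here. No other gene had an annotated end within 1 kb of this peak. A peak at the start together with a peak at the opposite end was found in 14.2% of all genes with a start.

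Spo11, which encodes the enzyme that makes the breaks, had no peak within 1 kb of its annotated ends and 2 peaks inside the gene. The first, chr2:172979353-172979614, was 262 bp wide, began 1.97 kb from the lower end and had 18 fragments (10.7 to 28.4), with a fold of 5.64 (3.46 to 8.74). The second, chr2:172979751-172980413, was 663 bp wide, began 2.37 kb from that end and had 28 fragments (18.6 to 40.5), with a fold of 8.49 (5.74 to 12.1). Their local backgrounds were 2.37 and 2.42 fragments, against a median of 6.02 over all marked starts. Both peaks were within 1 kb of an end of Gm52538, a long noncoding RNA gene on the minus strand. The table start of Gm52538 is its upper end at 172979120 on chromosome 2. To which of these genes the peaks belong cannot be told from the list. Peaks in the body with none at an annotated end were found in 8.88% of all protein-coding genes.

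Mei1, needed for break formation, was the only member with a table start and no peak at it. The nearest peak to that start lay 11.7 kb upstream, at chr15:82070132-82070777, which is 58 bp inside the lower annotated end of the gene, the end on the start side. It was 646 bp wide with 54 fragments (40.6 to 70.5) and a fold of 5.71 (4.32 to 7.42). This arrangement, a mark at the annotated end on the start side without a mark at the table start, was found in 1.45% of genes with a start. The highest fold at an annotated end of Mei1, 7.60 (5.59 to 10.1), belonged to a peak beyond its opposite end that covers the start of Ccdc134. The other 2 peaks, with folds of 3.17 and 3.95, lay 4.69 and 3.79 kb below the gene.

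Mei4, which encodes another protein of the break machinery, had a peak of 1335 bp over its start with 43 fragments (31.1 to 57.9) and a fold of 7.23 (5.28 to 9.68). It is the longest member at 342 kb, and 8 more peaks lay inside it, 34.7 to 296 kb from the start. These held 14 to 46 fragments at widths of 158 to 997 bp. The strongest, chr9:82159850-82160652, had 46 fragments and a fold of 12.2 (9.02 to 16.2), the highest of the 25 peaks. Folds at least as high were found in 0.757% of all peaks in the list. More than 5 kb from its ends Mei4 held 2.41 peaks per 100 kb, against a median of 2.04 (quartiles 1.04 and 3.60) over 990 genes of at least 200 kb. The number of internal peaks in Mei4 was thus within the middle range of genes of its length. The internal peaks had local backgrounds of 2.11 to 3.57 fragments, against 5.09 at the start.

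**Figure D3:**
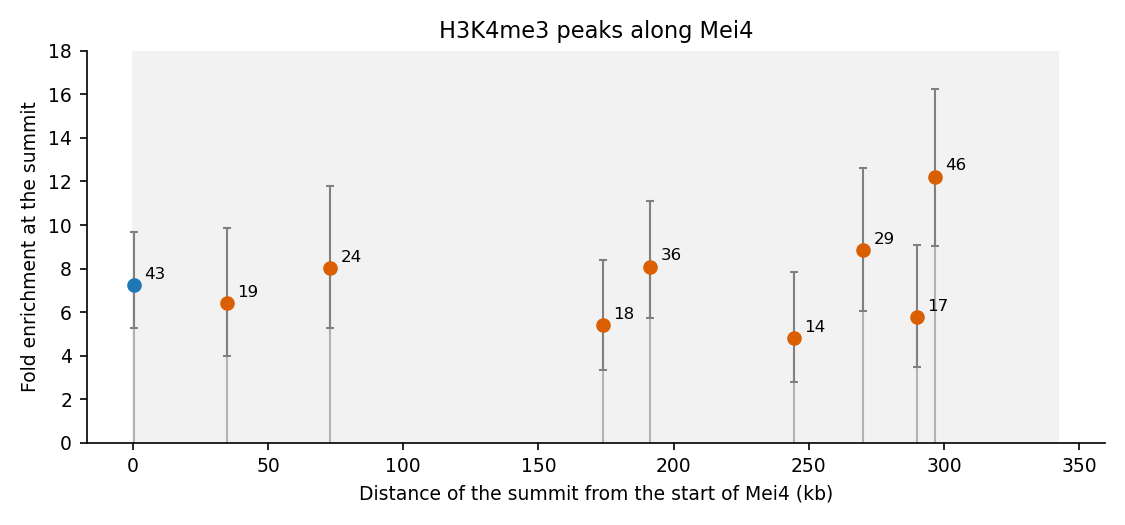
Peaks along Mei4, with the distance of each summit from the start in kb and the fold enrichment with its 95% Poisson interval. Numbers are fragments at the summit, the start peak is blue, internal peaks are orange and the gene is shaded. The internal peak with 46 fragments stands highest, at a fold of 12.2.

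Dmc1, the meiotic recombinase that forms filaments on the cut ends, had a single peak and the strongest start of the set. The peak, chr15:79604336-79605902, was 1567 bp wide and extended 793 bp upstream and 773 bp downstream of the start. It had 56 fragments (42.3 to 72.7) over a background of 5.66, a fold of 8.56 (6.51 to 11.1). Among all marked starts 92.1% had a fold at or below this and 97.1% a number of fragments at or below it.

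Hormad1 and Hormad2 encode HORMA-domain proteins of the chromosome axis, where breaks are promoted and unpaired regions are sensed. The Hormad1 start lay in a peak of 1456 bp with 39 fragments (27.7 to 53.3) and a fold of 6.84 (4.91 to 9.28). A second peak, 389 bp beyond the opposite end, had 42 fragments and a fold of 8.44 (6.14 to 11.3). It covers the table starts of the neighbouring genes Golph3l and Gm40097, the latter a long noncoding RNA gene. The fold of 8.44, the highest at an annotated end of Hormad1, is therefore not at its own start. Hormad2 had 1 peak in its 95.4 kb, of 1035 bp over the start, with 41 fragments (29.4 to 55.6) and a fold of 7.59 (5.50 to 10.2). The intervals of both HORMAD starts overlap.

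Of the crossover genes, Mlh3, whose product is part of an endonuclease that resolves crossover intermediates, had 1 peak of 1372 bp over its start. It held 44 fragments (32.0 to 59.1) and had a fold of 8.02 (5.87 to 10.7). Msh4 and Msh5 encode the pair of subunits of the MutSγ clamp that stabilises recombination intermediates, and their peaks lay off the start on opposite sides. The Msh4 peak, chr3:153905200-153906611, ended 309 bp upstream of the table start and covered the upper annotated end of the gene. It was 1412 bp wide with 35 fragments (24.4 to 48.7) and a fold of 5.66 (3.99 to 7.82). It was also within 1 kb of the annotated end of Rabggtb that is opposite to the Rabggtb start. The Msh5 peak, chr17:35045876-35046554, began 68 bp downstream of the start and was the narrowest start peak at 679 bp. It had 33 fragments (22.7 to 46.3) and the lowest fold of the start peaks, 3.73 (2.60 to 5.19). A further peak 2.99 kb upstream of Msh5, with 49 fragments and a fold of 4.65 (3.47 to 6.12), covers the start of Clic1. A marked start without a peak over its promoter window, as in Msh4 and Msh5, was found in 8.86% of all marked starts.

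**Figure D4:**
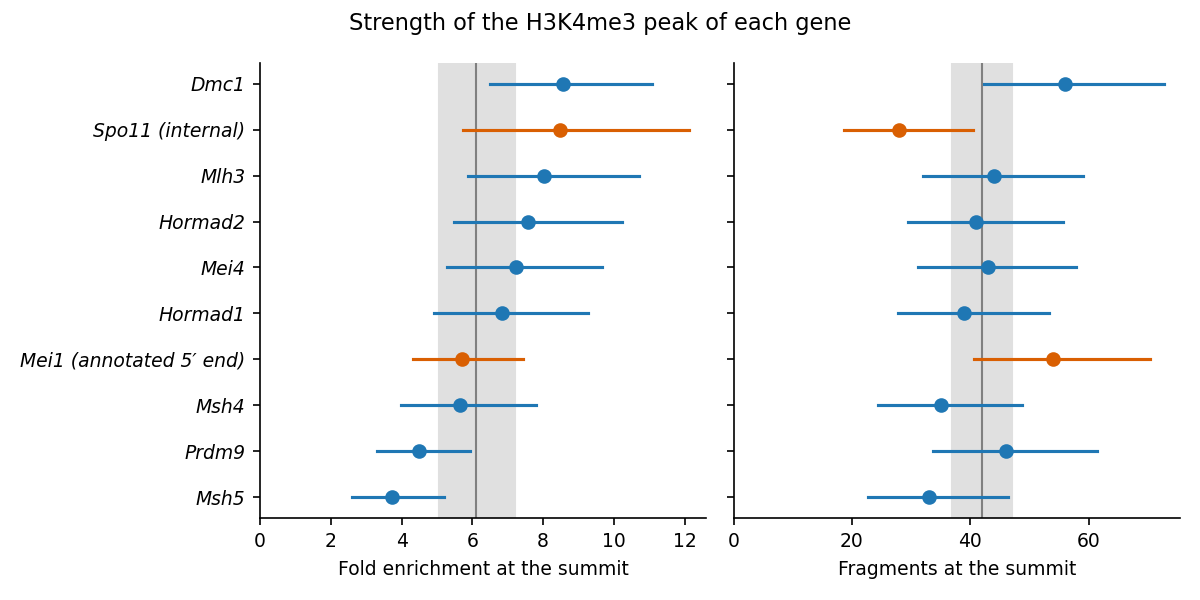
Fold enrichment (left) and fragments at the summit (right) of the peak of each gene with 95% Poisson intervals. Blue points are start peaks, orange points the Mei1 peak at its annotated 5′ end and the stronger internal Spo11 peak, the grey band spans the quartiles of all marked protein-coding starts and the line is their median. Dmc1 is highest by both measures, and Spo11 is high by fold and lowest by fragments.

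By fold the 8 start peaks ranked Dmc1, Mlh3, Hormad2, Mei4, Hormad1, Msh4, Prdm9 and Msh5, and the intervals of all neighbours in this order overlapped. Of 28 pairs, 5 had folds whose intervals were apart. Dmc1 was above Prdm9 and Msh5, and Mlh3, Hormad2 and Mei4 were above Msh5. The fold intervals hold the local background fixed and leave out its error. No pair had intervals of fragments at the summit that were apart, so the members' starts were not ordered by fragments. Prdm9 and Msh5 were low by fold beside the highest local backgrounds, 9.48 and 8.12 fragments, and Prdm9 was not low by fragments.

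Against all 12612 marked starts, the 8 members had a median fold of 7.03 against 6.10 and the same median of 42 fragments. The local background had a median of 5.22 fragments against 6.02, and width a median of 1392 bp against 1162 bp. The mark covered a median of 535.5 bp of the kb upstream and 715.5 bp of the kb downstream, against 576 and 752 bp. A start peak with a fold of at least 5 was present in 6 of 9 members, all but Mei1, Prdm9 and Msh5, and in 55% of all genes with a start. Peaks at most 1000 bp apart were merged into domains. The widest 5% of these, each at least 2002 bp, held an end of 0 of 10 members and of 16.8% of all protein-coding genes. With unjoined peaks the widest 5%, of at least 1455 bp, held an end of 3 members, Dmc1, Prdm9 and Hormad1, and of 19% of all genes. With the widest 10% of joined domains it was 1 member, Prdm9, and 30.4% of all genes.

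A list of 49 further recombination genes, of which 47 were found in the gene table, carried the mark at the start in 38 of the 38 cases with a table start, against 72.1% of all genes. At an annotated end 45 of the 47 were marked, against 74.5%. Neither share was compared with genes of like CpG count. The median fold of these start peaks was 6.36 and the median summit 42 fragments. In break formation all 6 other genes with a start were marked, with a median fold of 7.51. Ankrd31 and Iho1, which promote breaks with MEI4, led with folds of 9.25 (6.98 to 12.1) and 8.74 (6.25 to 11.9). In strand invasion all 15 were marked, and by the fold at an annotated end Rad51ap2 led at 9.76 (7.13 to 13.1), ahead of Rad51ap1 at 8.41 (6.18 to 11.2). Spata22, a partner of MEIOB on single-stranded DNA, was unmarked at its annotated ends but had a peak of 1635 bp with 51 fragments and a fold of 8.52 over its table start, inside the annotated gene as the Spo11 peaks are.

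In crossover formation 11 of 11 were marked at the start, led by Rnf212, a crossover designation factor, at 9.73 (7.41 to 12.6) and by Eme1 at 9.22 (6.68 to 12.4). Shoc1 was unmarked at its annotated ends and had 1 peak in its body, 1312 bp wide and 41 fragments high. Of axis and checkpoint genes 6 of 6 were marked, with Chek2 at 7.55 and Trip13 at 6.68 the highest. The mismatch repair genes that act outside meiosis, paralogs of Msh4, Msh5 and Mlh3, were marked at the start in the 4 of 4 listed cases with a table start. Their folds were 7.31 in Msh3, 4.87 in Msh6, 7.17 in Pms1 and 6.37 in Pms2. These values span a range within that of the 3 meiotic paralogs at the start, 3.73 to 8.02.

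**Figure D5:**
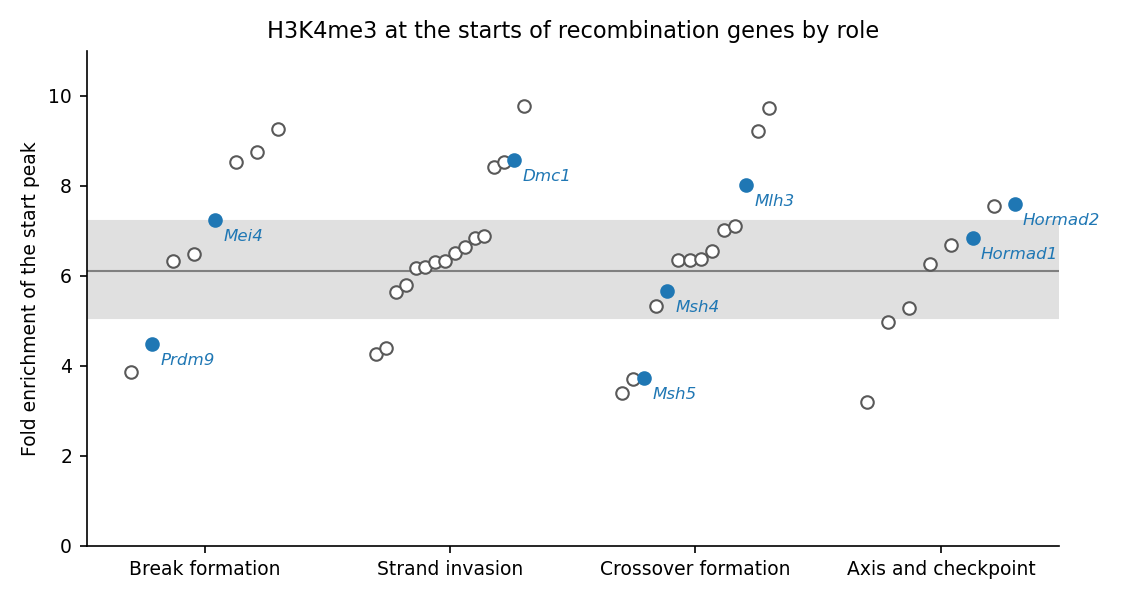
Fold enrichment of the start peak for recombination genes by role, with the genes described here in blue and other listed genes as open circles. The grey band and line are the quartiles and median of all marked protein-coding starts. Prdm9 and Msh5 lie below the band, Dmc1, Mlh3 and Hormad2 above it and Mei4 at its upper edge.

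Marker genes of the sorted and of other cells were counted in the same way, and there the mark stands for a promoter state and not for expression. Of 10 germ cell markers 8 were marked at an annotated end, against 74.5% of all protein-coding genes. The exceptions were Nanos2 and Nanos3, whose peaks lay only in their flanks. Of 10 markers each, 7 of Sertoli cells, 6 of Leydig and interstitial cells and 5 of endothelial and blood cells were marked. Among these the highest folds were 11.1 in Hbb-bt, 10.1 in Acta2 and 9.90 in Cyp11a1. Their summits held 35, 41 and 51 fragments over local backgrounds of 2.24, 3.16 and 4.25. Medians over all marked starts were 42 fragments and a background of 6.02. Gata4, Nr5a1 and Cst9 of the Sertoli markers were unmarked, as were Cyp17a1, Hsd3b1, Insl3 and Star of the Leydig and interstitial ones. Of the endothelial and blood markers Pecam1, Cdh5, Ptprc, Csf1r and Adgre1 were unmarked, and Hba-a1, the other globin gene, had a fold of 3.88. The germ cell and Sertoli shares are near that of all genes, and those of the other lists, 6 and 5 of 10, are below it. With 10 markers each, these counts do not tell the cell types apart. A part of other cells in the members' values was not tested.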

How the data were processed

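H3K4me3 CUT&RUN of sorted prospermatogonia gave 1 deposited peak list, and an IgG library was not used here. The tools named are MACS2 2.1.0, Bowtie2 2.5.0, Trim Galore, deepTools 3.5.1, bedtools 2.27.1 and SAMtools 1.16.1, with the builds mm10 and sacCer3, per the submitters' processing notes. What each tool did, and with which settings, is not given there. The authors deposited, for each peak, a score, a fold enrichment at the summit (a ratio to a local background), a −log10 p and a −log10 q, whose lowest value was 2.07. These belong to the peak caller of the authors, and no source says whether IgG reads entered the background or how many fragments were sequenced.

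Whole-number fragments at the summit and the background were recovered from fold and −log10 p, taking the fold as fragments plus 1 over background plus 1 and p as a Poisson upper tail. This solved 135053 of 135064 peaks within 0.0001, among them all 25 used here. Fragments carry no molecular identifiers, so intervals cover counting error only. Intervals of fold were scaled from those of fragments with the background held fixed, so error in the background is left out. Annotated gene ends were those of the RefSeq table, and starts, strands and sequences those of the RefSeq promoter table, both of GRCm38.p6. The promoter table gives the start of 17492 of 21887 protein-coding genes and of 9 of the 10 members. Of the listed genes Spo16 and Redic1 were not matched by symbol or synonym, and Top6bl, Brme1 and Fancj were matched by synonym.

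Members and lists were chosen with earlier results of these data known. The text names all members, the 2 genes of highest fold at an annotated end and every unmarked gene of each role. It also names the mismatch repair genes with a table start, unmarked germ cell markers, the 3 other markers of highest fold and neighbours that share a peak. Unmarked markers of other cells and Hba-a1 were added after their values were seen. Some genes that this rule names are not reported here. Alternatives covered windows, flanks, overlap, summit position, fold, −log10 q and domain joining. Scripts were tested on simulated data. Versions were scipy 1.17.1, pandas 2.3.3, numpy 2.4.6, matplotlib 3.10.9 and Python 3.11.15.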

Additional observations from a re-analysis of the deposited data

How the results depend on the processing

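The count of 9 of 10 members marked at an annotated end ran from 8 to 10 over 7 alternatives. With a window of 2500 bp Spo11 was added, where 80.5% of all genes were marked. Msh5 was lost with a fold of at least 5 (57.4% of all genes) or a −log10 q of at least 10 (67.9%). The 8 members marked at the start were the same with windows of 500 and 2500 bp and became 6 with a fold of at least 5, without Prdm9 and Msh5, where the share of all genes was 55%. Of 2 alternatives chosen after seeing the data, any start of the table left 8 marked and a −log10 q of at least 10 left 7, without Msh5. The other recombination genes marked at an annotated end, 45 of 47, ran from 35 with a fold of at least 5 to 46 with a window of 2500 bp, under the same shares of all genes (57.4% and 80.5%). The 25 peaks became 22 with flanks of 2 kb, 32 with 10 kb, and 19 with a fold or a −log10 q threshold of 5 and 10. Members in wide domains, 0 of 10, became 3 without joining of peaks (19% of all genes), 1, Prdm9, with the widest 10% (30.4%), and stayed 0 with gaps of 3000 bp (10%). The cause was not tested. No paired analysis was possible because each group has 1 library. At 33 to 56 fragments, intervals overlapped in all 28 pairs of start peaks, so no order by fragments was read.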

Other observations

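Over all protein-coding genes with a table start, the fold of marked starts was lower in windows rich in CpG, and the number of fragments was not. The median fold was 6.88 in windows of 0 to 4 CpGs and 5.65 in those of 30 or more, with medians of 32 and 42 fragments. Windows holding GCGGGAA were marked in 97% of cases, those with CACGTG in 90% and those with CNCCTCAG in 75.8%, against 72.1% of all. GCGGGAA and CACGTG each contain a CpG, and the shares were not compared at like CpG count.

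Among recombination genes outside the 10, the Ankrd31 start peak covered 0 bp of the kb upstream and 930 bp of the kb downstream, a placement on 1 side as in Msh5. The Rec114 start peak had a fold of 8.53 with 38 fragments, while the highest fold at an annotated end of Rec114 was 4.82, so its table start lies away from the annotated ends that were counted. Both genes were chosen after their values were seen.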
